A study of Mus musculus with 12 samples.

Results

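The genes described here are autosomal genes whose difference between Angelman syndrome (AS) and wild-type (WT) mice had opposite signs in females and in males. They were chosen by the sign of the estimated AS minus WT difference in each sex. Of 13219 autosomal genes in the deposited table, 13135 had a mean abundance of at least 1 and were tested, and 84 did not pass that filter. Of those tested, 6405 (48.8%) were opposed. In 3181 (24.2%) the value was higher in AS females and lower in AS males than in WT mice of the same sex, and in 3224 (24.5%) it was lower in AS females and higher in AS males. The signs are measured values, so the direction of a member describes it and is not a finding.

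The study sequenced polyadenylated RNA from the ventral portion of the right hippocampus of 12 C57BL/6J mice aged 12 to 16 weeks, with 1 library per mouse. The groups were 3 WT females, 3 AS females, 3 WT males and 3 AS males. The labels do not name the allele that the AS mice carry, its parental origin or the breeding scheme, and litters are not given. Values below are levels on the log2(abundance + 1) scale or differences of them, with standard errors (SE) from a limma model of 3 mice per group.

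Angelman syndrome arises in humans when the maternally inherited UBE3A gene is lost. It encodes a ubiquitin ligase, and its paternal copy is silenced in most neurons. The ventral hippocampus is the part of that structure best known for its role in emotional behaviour. A genotype effect that depends on sex appears as an interaction: the AS minus WT difference in males minus the same difference in females. The interaction is negative for genes that are higher in AS females and lower in AS males, and positive for the reverse.

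Several libraries stood apart. Ube3a itself (ENSMUSG00000025326, chromosome 7, 59228750 to 59311536, plus strand, GRCm38) was not opposed: its level was 4.09 to 4.34 in WT females, 3.95 to 4.25 in AS females, 3.99 to 4.21 in WT males and 3.78 to 4.31 in AS males. Since the mutation is not given, these overlapping transcript levels do not check the genotype labels. WT female replicate 1 had Xist, the RNA of X inactivation, at 0.35 (6.00 to 6.45 in the other females), with Y-linked genes at the female level. Without it 47.9% of genes were opposed and 480 had an unadjusted interaction p under 0.05. For a list of 32 choroid plexus genes, 4 libraries had a mean above the range of the others (1.55 to 1.91). These were replicates 1 and 2 of the WT females (3.82 and 4.61), replicate 2 of the AS females (4.52) and replicate 2 of the AS males (2.81). In bulk RNA, more tissue of a kind and more RNA per cell cannot be told apart. AS male replicate 2 also had the lowest library quality weight in limma (0.319) and a deviation that fell with the GC content of transcripts. The hippocampal marker genes Prox1, Neurod6 and Slc17a7 were present in every library, at 3.47 or more.

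No gene was called for the interaction with limma at an adjusted p under 0.05 (0.0% of the genes tested), and the smallest adjusted p was 0.987. At an unadjusted p under 0.05 there were 488 genes (3.72%), fewer than the 656.75 that this threshold alone gives among 13135 genes. Of these, 243 (1.85%) were higher in AS females and lower in AS males, 216 (1.64%) were the reverse, and 29 (0.221%) had the same sign in both sexes. The genotype difference within a sex gave 0 called genes as well (0.0% in females, 0.0% in males), with 406 (3.09%) at an unadjusted p under 0.05 in females and 831 (6.33%) in males. The 95% interval of the interaction had a median half-width of 0.35, so interactions smaller than that were not resolved for a typical gene. Labels do not tell whether mice shared a litter, and p-values measure the spread between these 12 animals.

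Most opposed differences were small. Across the opposed genes the smaller of the absolute differences had a median of 0.044. Both differences reached 0.1 in 1299 genes (20.3% of those opposed) and 0.3 in 138. At the other end, 877 opposed genes had a difference under 0.01 in 1 sex, so a slight change would put them on the other side of the rule. Across all 13135 genes, which are not independent replicates, the female and male differences had a Pearson's r of 0.0091.

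**Figure D1:**
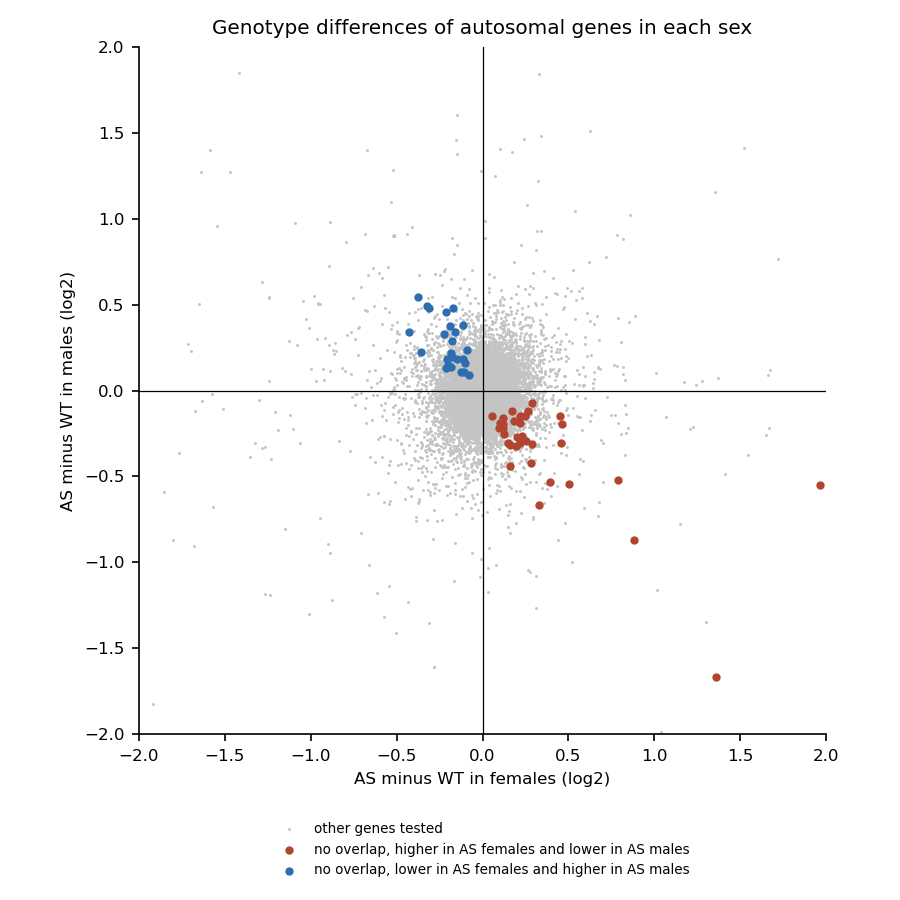
Each point is an autosomal gene, with the AS minus WT difference (log2) in females on the horizontal axis and in males on the vertical axis. The 35 red and 25 blue genes are those whose AS and WT libraries did not overlap in either sex, in opposite directions. The grey cloud is centred on 0 with no slope, and 17 genes lie beyond the axes.

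At the level of single mice, 60 genes (0.457%) had AS libraries entirely on one side of the WT libraries in females and entirely on the other side in males. Of these, 35 (0.266%) were higher in AS females and lower in AS males, and 25 (0.19%) were the reverse. Non-overlap in the same direction in both sexes was found for 98 genes (0.746%), 62 of them higher in AS (0.472%) and 36 lower (0.274%). Within a sex, the groups did not overlap for 9.04% of genes in females and 11.2% in males. The 60 opposed genes were spread over 14 chromosomes in the first direction and 13 in the second. Protein-coding genes made up 25 of the 35 and 24 of the 25. The 3 largest female differences among the 35 belonged to transcripts of low level that do not encode protein, named after their values were seen: the unprocessed pseudogene Gm16354 (1.96 in females, -0.55 in males), the small nucleolar RNA Gm22988 (1.36 and -1.66) and the processed pseudogene Gm12540 (0.88 and -0.87).

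Get4 had the smallest interaction p of all protein-coding opposed genes. It encodes a subunit of the complex that hands tail-anchored membrane proteins to the insertion machinery of the endoplasmic reticulum, and it lies at chromosome 5, 139252324 to 139270051, plus strand (ENSMUSG00000025858). Its level was 4.81, 4.82 and 4.80 in the WT females and 5.04, 5.01 and 5.12 in the AS females. In males it was 4.99, 4.97 and 4.92 in WT and 4.85, 4.83 and 4.76 in AS. AS and WT mice thus did not overlap in either sex, AS being higher in females and lower in males, and the AS males lay at the level of the WT females. The difference was 0.25 ± 0.05 in females (1.19-fold in abundance + 1) and -0.15 ± 0.05 in males, and the interaction was -0.40 ± 0.08 (95% interval -0.57 to -0.23, unadjusted p = 0.00028, adjusted p = 0.987 with limma).

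Sorl1, the gene of SORLA, a receptor that routes the amyloid precursor protein between compartments (chromosome 9, 41964720 to 42124297, minus strand), showed the same arrangement with tighter AS males. It read 5.58, 5.50 and 5.50 in WT females and 5.85, 5.69 and 5.83 in AS females. The male values were 5.48, 5.48 and 5.54 in WT and 5.38, 5.38 and 5.39 in AS. The WT sexes overlapped, while every AS female was above every AS male. The interaction was -0.39 ± 0.08, with 0.27 ± 0.06 in females and -0.12 ± 0.06 in males.

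In the reverse direction the leading gene was Comtd1, which encodes a protein with a methyltransferase domain (chromosome 14, 21845855 to 21848977, minus strand). Its level was 3.53, 3.76 and 3.80 in WT females and 3.22, 3.17 and 3.24 in AS females. WT males read 3.19, 3.71 and 3.23 and AS males 3.77, 3.66 and 3.71. The females did not overlap. In males WT replicate 2 lay among the AS mice, so the male groups overlapped. The interaction was 0.82 ± 0.18 (unadjusted p = 0.00068, adjusted p = 0.987 with limma). Without WT male replicate 2 its adjusted p was 0.0574, the lowest that any of the 39 ranked genes reached under the alternatives run.

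The promoters of Get4, Sorl1 and Comtd1 are shown because these genes had the smallest interaction p among the protein-coding members of their direction. Each sequence runs 5′ to 3′ on the gene's own strand from 150 bases before to 10 bases after the RefSeq start (GRCm38.p6), and capitals mark an E-box, CACGTG, a palindrome bound by basic helix-loop-helix factors. They lie at chr5:139252174-139252333 (plus), chr9:42124288-42124447 (minus) and chr14:21848901-21849060 (minus). The RefSeq start of Comtd1 is at -67 in genome coordinates from the start of the gene as placed above. On the minus strand that is inside the gene, so the end of its window, with the E-box, lies within the annotated gene.
Get4: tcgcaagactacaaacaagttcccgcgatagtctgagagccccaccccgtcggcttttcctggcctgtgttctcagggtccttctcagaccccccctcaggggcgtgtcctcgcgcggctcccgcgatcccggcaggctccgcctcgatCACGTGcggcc
Sorl1: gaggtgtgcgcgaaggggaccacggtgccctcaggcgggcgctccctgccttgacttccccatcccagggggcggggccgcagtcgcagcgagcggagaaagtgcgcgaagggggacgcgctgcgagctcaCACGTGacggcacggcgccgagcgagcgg
Comtd1: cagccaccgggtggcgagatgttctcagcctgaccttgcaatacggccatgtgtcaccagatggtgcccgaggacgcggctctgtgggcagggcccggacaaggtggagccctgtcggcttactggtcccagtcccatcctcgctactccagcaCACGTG
The second gene of the reverse direction, Hscb, is named only. The full windows of 300 bases (250 before to 50 after the start) were also searched on both strands for the cyclic AMP response element TGACGTCA, the RFX half-site GTTGCC, the CCAAT box, the TATA box TATAAA, the estrogen response element, the glucocorticoid and androgen response element, the heat shock element and the NRF1 motif. None of these other motifs was in the 3 windows, which says only that these letters are absent there. CACGTG occurs in 7.15% of 32851 RefSeq windows of that length. That share covers all RefSeq windows and not the tested genes alone. A window was found for 75.5% of the tested autosomal genes, and promoter motifs were not compared between gene sets. Whether CACGTG is more frequent among opposed genes was thus not tested.

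Other genes higher in AS females and lower in AS males spanned the nucleus, the cytoskeleton and the membrane. Ccdc130, a relative of the splicing factor Yju2, read 3.06, 3.25 and 3.12 in WT females, 3.58, 3.42 and 3.93 in AS females, 3.81, 3.35 and 3.59 in WT males and 3.29, 2.71 and 3.13 in AS males. Its groups did not overlap in either sex, and its differences were 0.50 ± 0.17 in females and -0.54 ± 0.17 in males. Sgf29, a chromatin reader of the SAGA complex, read 3.61, 3.62 and 3.29 in WT females, 3.94, 3.76 and 4.20 in AS females, 3.69, 3.60 and 3.89 in WT males and 3.59, 3.43 and 3.26 in AS males, again without overlap. Its interaction was -0.76 ± 0.19. Bcl11a, a zinc finger repressor, overlapped in females (0.08 ± 0.06) and not in males (-0.31 ± 0.06), and Crocc, which encodes the ciliary rootlet protein rootletin, did likewise (0.10 ± 0.09 and -0.36 ± 0.09). BC024978 was the converse, with 0.57 ± 0.13 in females without overlap and -0.16 ± 0.13 in males with overlap.

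Plec, which encodes the cytoskeletal linker plectin, gave 0.16 ± 0.09 in females and -0.32 ± 0.09 in males. Ano4, of the anoctamin family, gave 0.22 ± 0.08 and -0.19 ± 0.08. Ldlrad4, an inhibitor of TGF-beta signalling, gave 0.22 ± 0.09 and -0.30 ± 0.09. All of these were without overlap. Stac3, known from excitation-contraction coupling in muscle, was low (0.39 to 2.07) and overlapped in females.

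By the size of the smaller difference among genes without overlap, the list added Robo3, an axon guidance receptor of midline crossing (0.39 ± 0.22 in females, -0.53 ± 0.22 in males), and Osbp2, an oxysterol-binding protein (0.29 ± 0.13 and -0.31 ± 0.13). Grrp1 (0.33 ± 0.23 and -0.66 ± 0.23), Pdcd2l (0.23 ± 0.11 and -0.26 ± 0.11) and the C-type lectin gene Cd209c (0.20 ± 0.13 and -0.32 ± 0.13) completed it. Robo3, Grrp1 and Cd209c are weakly expressed here, with a highest level of 2.57, in Robo3. Hsf1, the master regulator of the heat shock response, was without overlap too (0.09 ± 0.06 and -0.22 ± 0.06). It was picked after its values were seen.

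Genes lower in AS females and higher in AS males were led, after Comtd1, by Hscb, which helps mitochondria build iron-sulfur clusters (chromosome 5, 110829070 to 110839777, minus strand). Hscb read 2.97, 3.05 and 3.13 in WT females, 2.97, 2.72 and 2.95 in AS females, 2.95, 2.73 and 2.65 in WT males and 3.21, 3.32 and 3.24 in AS males. The female groups were barely apart and the male groups clearly so, and the difference was -0.17 ± 0.10 in females and 0.48 ± 0.10 in males. Dnajc12, a co-chaperone of the aromatic amino acid hydroxylases, read 3.60, 3.65 and 3.91 in WT females, 3.43, 3.29 and 3.37 in AS females, 3.41, 3.35 and 3.64 in WT males and 3.69, 3.67 and 3.71 in AS males. Its AS males were nearly constant and all above the WT males, and its AS females were all below the WT females. Mitd1, a partner of ESCRT-III in cytokinesis, showed -0.21 ± 0.12 in females and 0.46 ± 0.12 in males without overlap, with AS males at 3.26, 3.47 and 3.03 and WT males at 2.73, 2.87 and 2.80.

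Parts of the machinery of RNA polymerase III, which makes transfer RNA and 5S ribosomal RNA, were in this direction. Gtf3c6, a subunit of the initiation factor TFIIIC, read 4.20, 4.27 and 4.33 in WT females and 4.05 in each AS female. In males it read 3.99, 3.98 and 4.03 in WT and 4.13, 4.10 and 4.16 in AS. Both sexes were without overlap, and the WT females were also all above the WT males. Polr3f, a subunit of the polymerase, gave -0.19 ± 0.13 in females and 0.37 ± 0.13 in males, also without overlap. Of 19 tested subunits and initiation factors of RNA polymerase III, a list put together after these genes were seen, 8 had this direction, 3 the other, 7 were higher in AS in both sexes and 1 was lower in both. The medians were 0.02 in females and 0.05 in males, so the list as a whole was not opposed, and Gtf3c6 and Polr3f alone had an unadjusted p under 0.05.

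Further ranked genes of this direction were Clybl, Gstk1 and Tamm41. Clybl, the citramalyl-CoA lyase, gave -0.27 ± 0.07 in females and 0.15 ± 0.07 in males. Gstk1, the kappa glutathione transferase, gave -0.49 ± 0.12 and 0.13 ± 0.12. Tamm41, an enzyme of cardiolipin synthesis, gave -0.09 ± 0.13 and 0.56 ± 0.13. Each of these overlapped in 1 sex: Clybl and Gstk1 in males and Tamm41 in females. Tamm41 is the only named gene of the ranked sets that changed a sign under an alternative, being 0.07 in females without WT female replicate 2.

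The remaining ranked genes were of mixed kind. Edrf1, an erythroid regulator, gave -0.16 ± 0.09 in females and 0.34 ± 0.09 in males, and Sccpdh gave -0.09 ± 0.06 and 0.24 ± 0.06. Neither overlapped. Pde3b, a phosphodiesterase for cyclic AMP (-0.44 ± 0.14 and 0.26 ± 0.14), overlapped in males. Rchy1, a ubiquitin ligase that acts on p53 (-0.14 ± 0.07 and 0.23 ± 0.07), overlapped in females. Further genes without overlap in either sex were Pxdc1 (-0.38 ± 0.20 and 0.54 ± 0.20), Agbl3, a tubulin deglutamylase (-0.43 ± 0.17 and 0.34 ± 0.17), Morn5 (-0.31 ± 0.22 and 0.48 ± 0.22), Shisa2 (-0.22 ± 0.14 and 0.33 ± 0.14) and the zinc transporter Slc30a6 (-0.21 ± 0.08 and 0.18 ± 0.08). Lrp1b, a large receptor of the LDL family (-0.18 ± 0.08 and 0.22 ± 0.08), and Rsl1, a zinc finger repressor known for silencing male-specific genes in female liver (-0.18 ± 0.11 and 0.29 ± 0.11), were also without overlap and were picked after their values were seen. Apart from Ube3a, Xist and the hippocampal markers, each gene with values up to here had an adjusted interaction p of 0.987 with limma.

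**Figure D2:**
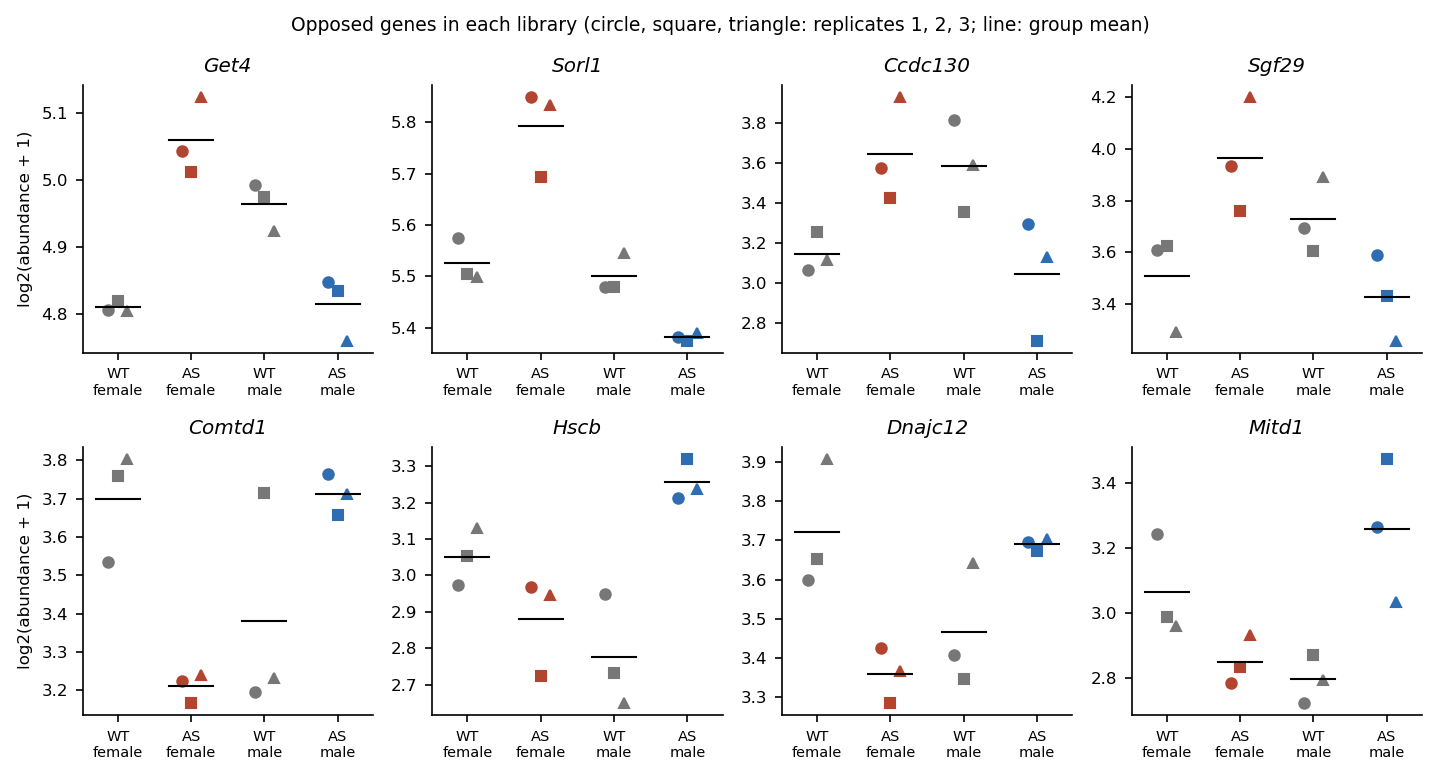
Levels (log2(abundance + 1)) of 8 opposed genes in each of the 12 libraries, with the group mean as a line. Vertical axes differ between panels and do not start at 0. In the upper row AS females lie above WT females and AS males below WT males; in the lower row the order is reversed, with WT male replicate 2 of Comtd1 among the AS males.

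Among transcripts that are not protein coding, 4 had the smallest interaction p. Gm14286, annotated as antisense (chromosome 2, 157544266 to 157545469, minus strand), read 1.47, 1.54 and 1.65 in WT females and 2.34, 2.42 and 2.27 in AS females, against 2.22, 2.27 and 2.56 in WT males and 2.10, 1.32 and 2.08 in AS males. The antisense Gm15860 gave 0.69 ± 0.15 in females and -0.29 ± 0.15 in males. Neither the labels nor the table state that strand was used, so reads of these transcripts and of genes on the opposite strand cannot be told apart. Miat, an abundant long noncoding RNA of neurons, read 6.72, 6.63 and 6.60 in WT females, 6.78, 6.86 and 7.06 in AS females, 7.28, 6.98 and 7.09 in WT males and 6.84, 6.81 and 6.82 in AS males, without overlap in either sex. The processed pseudogene Gm12751 had the reverse direction (-0.60 ± 0.23 and 0.68 ± 0.23) and overlapped in males. A pseudogene shares sequence with its parent, so its value may hold reads of another gene.

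In the 60 genes without overlap the sexes were also compared within each genotype, which depends in part on how the genes were chosen. In 29 of the 35 genes higher in AS females and lower in AS males, the WT sexes also did not overlap, and in 17 the AS sexes did not. For the 25 genes of the reverse direction these counts were 19 and 16. The share of all tested genes whose sexes did not overlap is not given here, so no excess can be read from these counts. The sex differences within a genotype are combinations of the same 4 group means that define the interaction, so they are no independent evidence.

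Sex over both genotypes is independent of the genotype differences in this balanced design. The male minus female difference had an unadjusted p under 0.05 in 6.86% of all tested autosomal genes and was called in 0.0% at an adjusted p under 0.05 with limma. The share was 7.73% for genes higher in AS females and lower in AS males, 7.32% for the reverse and 6.23% for genes of the same sign. Among genes whose interaction p was under 0.05 it was 13.2% and 13.4% in the 2 directions. The residual variance of a gene enters both tests, so selection by the interaction p is not independent of the sex p. How far this accounts for the higher shares was not tested. Of the genes without overlap, 7 of 35 and 5 of 25 had a sex p under 0.05, Sorl1 among them with -0.22 ± 0.04.

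Gene families were described by the median genotype difference of their members in each sex, with no set test. The lists were chosen with earlier results of these data known. The medians over all autosomal genes were 0.00 in females and 0.01 in males, with 24.2% of genes in the first direction and 24.5% in the reverse. Of 65 families with at least 5 tested members, 32 had medians of opposite sign, 22 of them higher in AS females and lower in AS males. No family had a member called for the interaction with limma. A family's mean level separated the genotypes in females in 3 of the 32 opposed families and in males in 5, and in none in both sexes. Lists that were not opposed were apart too: interneuron and heat shock genes in females, chaperonin with prefoldin and histone genes in males. Such separation was thus not particular to opposed families. The families described next are opposed ones with at least 10 members, of which at least 40% had the same opposed direction, a limit set after the values were seen. There were 19.

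Ion channels were described first among the neuronal families. Of 29 genes of potassium channels other than the voltage-gated Kv type and of HCN channels, 18 (62.1%) were higher in AS females and lower in AS males and 2 had the reverse direction, with medians of 0.10 in females and -0.08 in males. Kcnj11, the pore of the ATP-sensitive potassium channel, read 3.15, 3.05 and 2.81 in WT females, 3.08, 2.94 and 3.47 in AS females, 3.44, 3.53 and 2.98 in WT males and 2.71, 2.67 and 2.87 in AS males. Its groups overlapped in females and not in males, with an interaction of -0.73 ± 0.23. Kcnmb2, an inactivating subunit of BK channels, went the other way (-0.24 ± 0.12 and 0.20 ± 0.12). Kcnj9 (0.10 ± 0.09 and -0.14 ± 0.09) and Kcnj6 (0.22 ± 0.14 and -0.09 ± 0.14), subunits of the G protein-gated channels, followed the family.

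Voltage-gated calcium channel genes had 9 of 15 members (60.0%) in that direction and 0 in the reverse, with medians of 0.11 and -0.09. Cacna1e, the R-type pore, gave 0.22 ± 0.10 in females and -0.12 ± 0.10 in males, and its libraries overlapped in both sexes. Cacna1a, the P/Q-type pore, gave 0.08 ± 0.14 and -0.24 ± 0.14, and the auxiliary subunit gene Cacnb4 gave 0.11 ± 0.19 and -0.36 ± 0.19. The sodium channels and proteins of the axon initial segment had 8 of 20 members in the direction and 2 in the reverse (medians 0.02 and -0.07). Scn8a, the sodium channel Nav1.6 of the initial segment, lay between 5.14 and 5.31 in WT females, 5.32 and 5.53 in AS females, 5.31 and 5.45 in WT males and 5.21 and 5.31 in AS males. It did not overlap in either sex. Sptbn4, which encodes the spectrin of the initial segment, overlapped in females (0.10 ± 0.09) and not in males (-0.30 ± 0.09). Voltage-gated potassium channels had opposed medians (0.02 and -0.07) but only 36.8% of 38 members in the direction.

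Receptor and synapse genes were described in the same way. Of 27 ionotropic glutamate receptor and auxiliary subunit genes, 13 were higher in AS females and lower in AS males and 2 the reverse (medians 0.09 and -0.03). Grin1, the obligatory NMDA receptor subunit, gave 0.14 ± 0.08 and -0.10 ± 0.08, and Grin2c gave 0.15 ± 0.15 and -0.26 ± 0.15. Postsynaptic scaffold and CaMKII genes had 15 of 25 members in the direction and 1 in the reverse (medians 0.03 and -0.05), with Shank1 at 0.06 ± 0.08 and -0.24 ± 0.08 and Shank2 at 0.04 ± 0.08 and -0.27 ± 0.08. Both Shank genes, which encode master scaffolds of the excitatory synapse, were without overlap in males alone. Without AS male replicate 2 the scaffold list had 10 of 25 in the direction and a male median of -0.02. Synaptic vesicle release genes had 16 of 37 in the direction and 0 in the reverse (medians 0.04 and -0.06). Without AS male replicate 2 there were 10 of 37, and the male median was 0.01, so the list was no longer opposed. Syt2, a fast calcium sensor, gave 0.25 ± 0.21 and -0.48 ± 0.21, and Syt7, a slow one, 0.19 ± 0.12 and -0.19 ± 0.12. Among metabotropic receptors 5 of 12 had the direction (medians 0.02 and -0.05). Grm2, the presynaptic receptor mGluR2, did not overlap in either sex (0.16 ± 0.16 and -0.44 ± 0.16).

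Immediate early genes, which are induced by neuronal activity, had 18 of 33 members (54.5%) higher in AS females and lower in AS males and medians of 0.08 and -0.15. Dusp1, a phosphatase of MAP kinases, read 3.03, 3.55 and 3.22 in WT females, 3.27, 3.90 and 3.35 in AS females, 3.70, 3.74 and 4.11 in WT males and 3.36, 2.71 and 3.62 in AS males. Arc, a postsynaptic regulator of receptor endocytosis, read 4.72, 4.80 and 4.72 in WT females and 4.98, 4.97 and 4.85 in AS females, without overlap, and 4.85, 5.59 and 4.97 in WT males and 4.75, 3.85 and 5.41 in AS males, with overlap. The lowest value of both genes belongs to AS male replicate 2, and the same library had the lowest mean of the list. Without it the male median was 0.08 and the family was no longer opposed, with 6 members in the direction and 5 in the reverse. With the 4 choroid-rich libraries left out the family reversed, to -0.09 in females and 0.08 in males.

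Marker lists of tissue next to the hippocampus and of blood had wide medians. In the choroid plexus list 28 of 31 members (90.3%) were lower in AS females and higher in AS males, with medians of -0.76 and 0.32, and 0 had an interaction p under 0.05. Ttr, the thyroid hormone carrier, read 10.94, 11.71 and 6.49 in WT females and 4.20, 11.66 and 6.17 in AS females. In males it read 5.57, 5.61 and 3.27 in WT and 3.83, 9.24 and 2.33 in AS. The 4 highest values came from the 4 libraries named above, and the groups overlapped in both sexes. Without AS male replicate 2 the male median was -0.04, and the family was no longer opposed. The red blood cell list, with 6 members, had medians of 0.29 in females and -0.42 in males, 4 members higher in AS females and lower in AS males and 1 the reverse. Without AS male replicate 2 its male median was -0.19, and the AS and WT means of this list overlapped in both sexes.

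Ependymal and motile cilium genes had their highest means in the same 4 libraries. Of 18, 14 (77.8%) were lower in AS females and higher in AS males, with medians of -0.22 and 0.18. Rsph1, of the ciliary radial spoke, read 3.16, 3.33 and 2.65 in WT females, 2.23, 3.29 and 2.71 in AS females, 2.10, 1.80 and 2.06 in WT males and 2.45, 2.46 and 2.20 in AS males. Dnaic1, a dynein intermediate chain, read 1.99, 2.10 and 2.32 in WT males and 2.38, 2.38 and 2.39 in AS males. For these 2 genes every AS male was above every WT male, and AS male replicate 2 did not stand apart from the other AS males. The mean level of the whole list differed from this and overlapped in both sexes. In males it was 2.11, 2.40 and 1.91 in AS and 2.04, 1.65 and 2.16 in WT, highest in AS male replicate 2. Without AS male replicate 2 the male median of the family was 0.07 with 9 of 18 in the direction, and without the 4 libraries both medians of the ciliary list were positive. Adjusted for the choroid plexus mean of each library, its medians were -0.06 and 0.14, still opposed, with 8 of 18 in the direction. Meningeal and vascular fibroblast genes had 8 of 17 in the direction (medians -0.30 and 0.03), and without AS male replicate 2 the male median was -0.12.

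Cytosolic ribosomal protein genes and nuclear genes of oxidative phosphorylation had more members in this direction than in the reverse, with male medians near 0. Of 76 cytosolic ribosomal protein genes, 31 (40.8%) were lower in AS females and higher in AS males and 9 the reverse, with medians of -0.05 and 0.00. A further 27 were lower in AS in both sexes and 9 higher in both. Rpl5 gave -0.11 ± 0.09 and 0.26 ± 0.09, and Rpl10a gave -0.18 ± 0.09 and 0.18 ± 0.09. Ribosomal protein genes have many processed pseudogenes, so the assignment of their reads is uncertain. AS male replicate 2 had the lowest mean of the family. Without it 47 of 76 had the direction and the male median was 0.07. Nuclear genes of oxidative phosphorylation, which were not opposed by their medians (-0.04 and 0.00), had 35 of 95 in the direction, and 48 without that library. With all libraries 34 were lower in AS in both sexes, 14 had the reverse direction and 12 were higher in both. Ndufc2, of complex I, gave -0.22 ± 0.08 and 0.11 ± 0.08. Mitochondrial ribosomal protein genes were not opposed (medians -0.02 and -0.02), with 16 of 78 in the direction and 13 in the reverse. Without AS male replicate 2 these counts were 28 and 11.

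**Figure D3:**
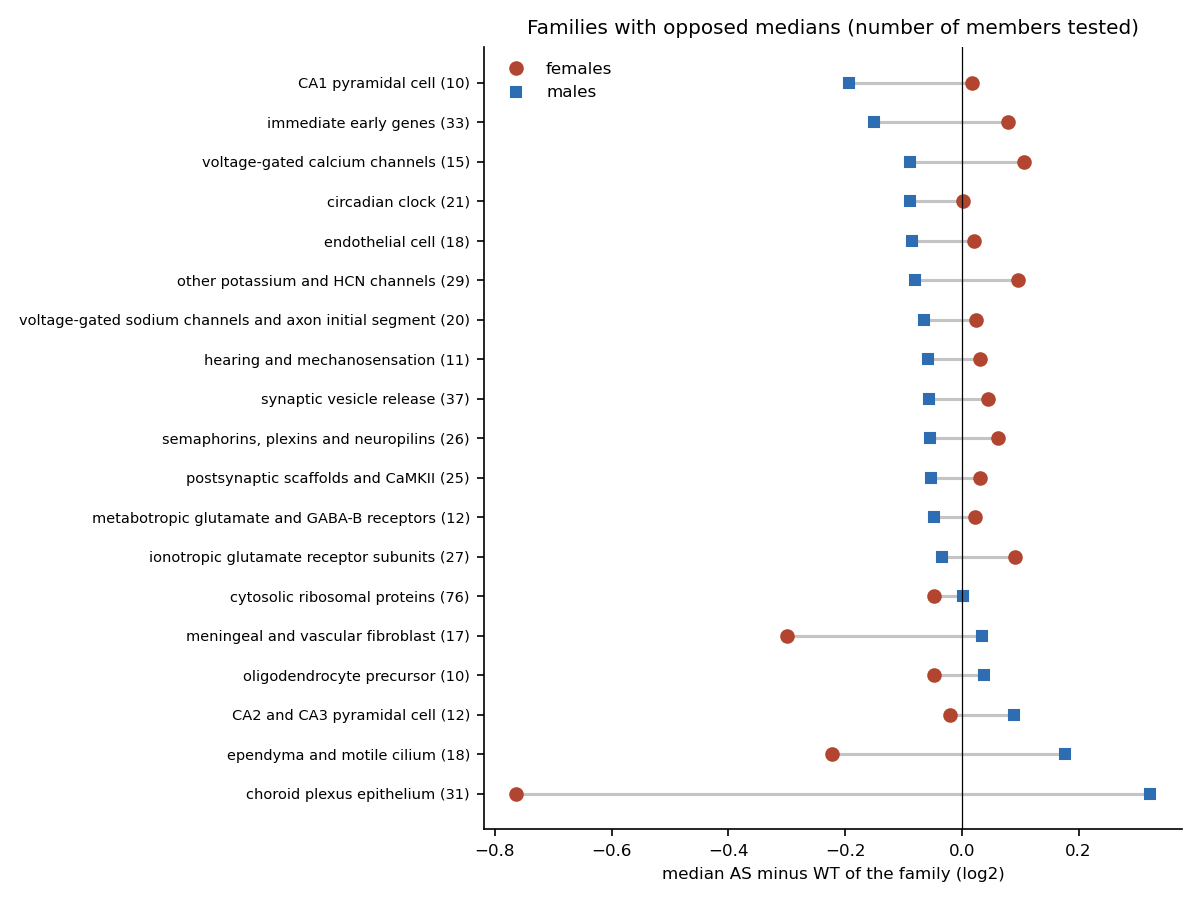
Median AS minus WT difference (log2) of the members of 19 families in females (circles) and males (squares), with the number of tested members after each name. The channel and synapse families lie right of 0 in females and left of 0 in males, by 0.11 or less, while choroid plexus genes run from -0.76 to 0.32.

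The other described families were small or close to 0 in 1 sex. Circadian clock genes had 10 of 21 in the first direction with a female median of 0.00 and a male median of -0.09, and semaphorins with their receptors had 12 of 26 (0.06 and -0.05). Marker genes of CA1 pyramidal cells had medians of 0.02 and -0.19, with 5 of 10 in the first direction, and those of CA2 and CA3 had -0.02 and 0.09, with 6 of 12 in the reverse. Endothelial genes had 0.02 and -0.09, oligodendrocyte precursor genes -0.05 and 0.04, and genes of hearing and mechanosensation 0.03 and -0.06. Steroid hormone genes, the list closest to sex, had opposed but small medians (0.02 and -0.03), with 7 of 19 in the first direction and 1 in the reverse. Hsd3b2, a steroid dehydrogenase, gave 0.12 ± 0.07 and -0.16 ± 0.07 without overlap in either sex. Its close relatives in the genome make its read assignment uncertain. Esr1, the estrogen receptor alpha gene, was not opposed (0.00 ± 0.20 and 0.31 ± 0.20).

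Families outside the 19 were not followed through every alternative. Across the 24 alternatives in which an interaction could be fitted, 4 of the 19 described families kept opposed medians in all: the potassium and HCN channels, the calcium channels, the sodium channels with the axon initial segment, and the ionotropic glutamate receptors. The counts of members moved more. Without the 4 choroid-rich libraries, members in the direction and in the reverse were, in that order, 11 and 4 of 29, 6 and 1 of 15, 8 and 5 of 20, and 11 and 4 of 27. For the ionotropic glutamate receptors they were 9 and 2 after a correction for GC content (described below). Without AS male replicate 2 they were 11 and 3. The male median of these receptors was -0.01 under either alternative, so their opposition rested on a value near 0. Postsynaptic scaffolds kept them in 22. Synaptic vesicle release kept them in 20. The mean level of the sodium channel and axon initial segment list did not overlap in males, at 6.02 to 6.05 in AS and 6.08 to 6.17 in WT, and overlapped in females. The mean level of potassium and HCN channel genes was 3.30, 3.24 and 3.30 in WT females, 3.40, 3.29 and 3.39 in AS females, 3.38, 3.47 and 3.37 in WT males and 3.38, 3.27 and 3.36 in AS males, with overlap in both sexes.

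**Figure D4:**
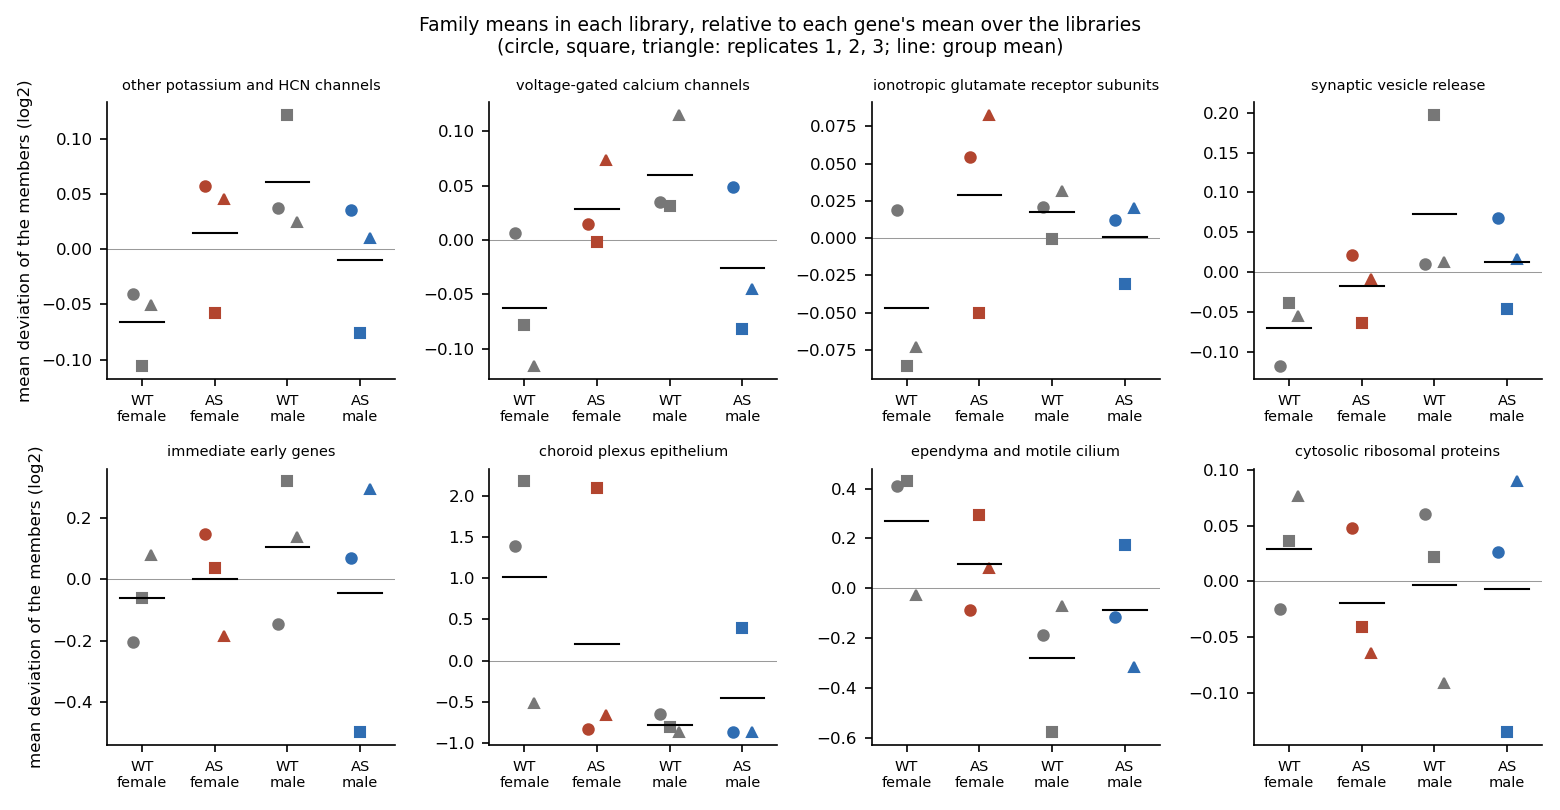
Mean deviation of the members of 8 families from each gene's mean over the libraries (log2), by library, with the group mean as a line. Vertical axes differ between panels. AS male replicate 2 (square, AS male) is the lowest library for immediate early genes and ribosomal protein genes, and the choroid plexus panel is set by 4 libraries.

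Families were also formed from gene symbols that share their letters before the first digit. Of 146 such stems with at least 10 tested members, the highest share of genes higher in AS females and lower in AS males was that of Kcnj (66.7% of 12), followed by Cacna (54.5% of 11) and Sema (52.9% of 17). The reverse direction was led by Cfap, cilia- and flagella-associated proteins (57.9% of 19), Eif, translation initiation factors (54.9% of 51), Cnot, the CCR4-NOT deadenylase (54.5% of 11), and Prpf, pre-mRNA processing factors (53.8% of 13). These are the extremes of 146 shares and were picked by their values. The Kcnj, Cacna and Sema stems share members with the channel and semaphorin lists above, so they are no separate observation. Stems were summarised with all libraries only.

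The direction of an opposed gene followed the GC content of its longest transcript. The median was 53.1% for genes higher in AS females and lower in AS males, 46.8% for the reverse and 49.8% for all. In 5 classes of 2627 genes from low to high GC, the share in the first direction was 13.3, 16.4, 20.8, 30.2 and 40.4%, and the share in the reverse was 37.5, 31.7, 24.4, 17.2 and 11.9%. Transcript length, with medians of 3456 and 3154 bases in the 2 directions and 3340 over all genes, differed less. The classes and the check were added after the values were seen.

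The gradient was much weaker without 1 library. The mean deviation of the highest class minus that of the lowest was -0.31 (log2) in AS male replicate 2, against -0.08 to 0.15 in the other libraries. Without that library the first direction held 22.6, 20.7, 19.7, 21.7 and 24.6% of the classes, and the reverse 24.8, 26.6, 27, 23.2 and 19.1%. Leaving out any other single library kept the gradient, with the first direction at 10.2 to 17.2% in the lowest class and 33.8 to 46.7% in the highest. After a correction for GC in each library, 46.3% of genes were opposed, 54 had no overlap in either sex, and the first direction held 22.2% of the lowest class and 23% of the highest. The near-equal shares of the classes follow from the correction, which removes the trend with GC. All named genes of the ranked sets kept both signs without AS male replicate 2 and after the GC correction. The potassium and HCN channels had 15 of 29 members in the direction without that library and 17 after the correction, against 18 with all libraries. Their count was 14 with the choroid plexus mean as covariate and 13 without WT male replicate 2. Without the 4 choroid-rich libraries it was 11, with a female median of 0.04.

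**Figure D5:**
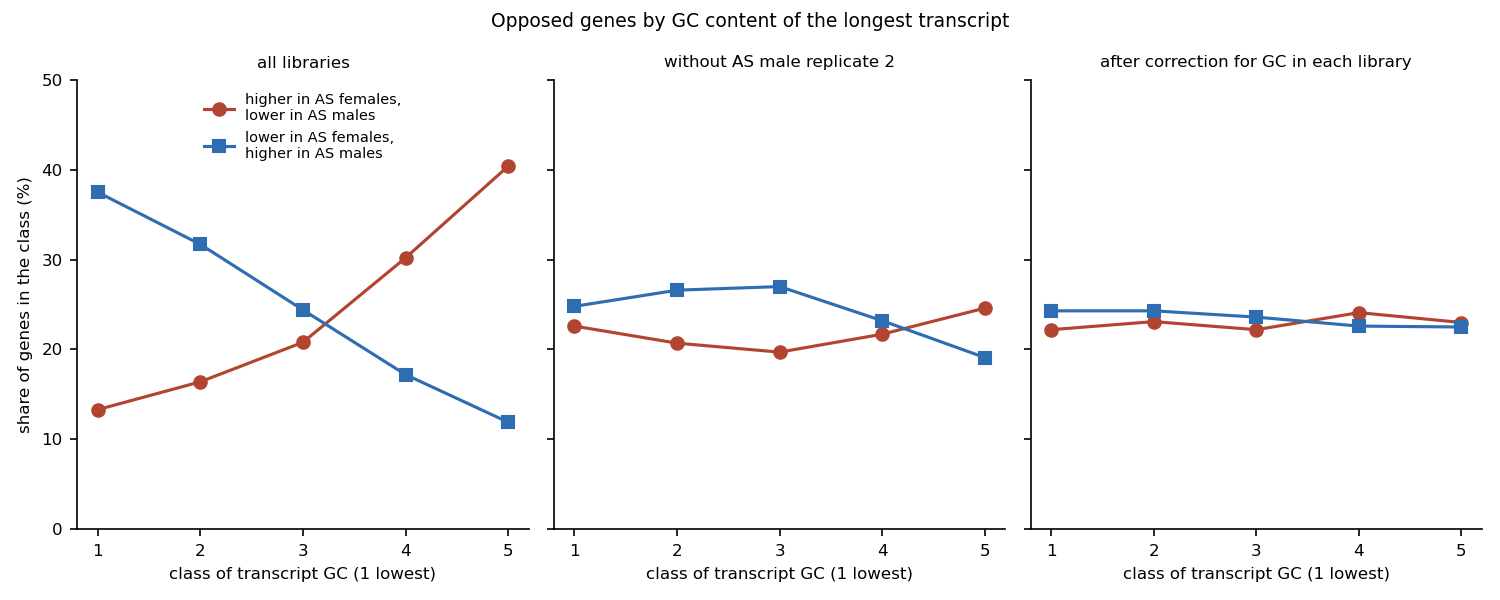
Share of genes (%) in each opposed direction by class of transcript GC, with all libraries, without AS male replicate 2 and after correction for GC in each library. The lines cross steeply with all libraries (13.3 to 40.4% and 37.5 to 11.9%). They are flatter without AS male replicate 2 (22.6 to 24.6% and 24.8 to 19.1%). After the correction they are nearly flat, which follows from its construction.

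By chromosome, the share opposed ran from 44.2% on chromosome 9 to 52.5% on chromosome 10. By class of transcript, it was 48.8% of 12213 protein-coding genes, 48.9% of 176 long intergenic noncoding RNAs and 49.1% of 175 antisense transcripts. Smaller or less certain classes ranged wider, with 44.3% of 201 processed pseudogenes, 69.6% of 23 unprocessed pseudogenes and 11.1% of 9 miRNA genes. No test was made of these shares.

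The interaction calls that appeared under an alternative were of 4 short noncoding RNAs, each with high and low libraries within a group. Snord15b was called for the interaction without WT female replicate 1 (adjusted p = 0.0036 with limma), having read 0.28, 4.29 and 4.29 in the WT females and at most 1.49 in every other library. It was called again with the 4 choroid-rich libraries left out (adjusted p = 0.0158 with limma). That fit holds 1 WT female, which is assumed to vary like the other groups, so its calls rest on a single mouse in that arm. Gm24409, a small nuclear RNA, read 3.68, 3.82 and 0.17 in WT females and was called without the third of them. Snora21 read 5.02, 0.71 and 5.10 in WT males and was called without the second. Gm22270 read 5.31, 1.23 and 5.60 in AS males and 5.67 in WT female replicate 2, and was called with those 4 left out, which include both that female and the low male. With all libraries none of the 4 was called for the interaction.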

How the data were processed

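Libraries from 12 mice were compared in 4 groups of 3. Per the submitters' processing notes, Trimmomatic, Bowtie2 and RSEM were used with GRCm38 (mm10), with no versions given. The deposited values were read as the natural log of RSEM abundance + 1, although base, constant, normalization and filter are not given in the sources used here, and their depth is unknown, so no counting error can be stated. Values were turned into log2(abundance + 1) and fitted with limma 3.58.1 (R 4.3.3) over all 13858 genes with a mean abundance of at least 1 (93 left out), with 4 group means, a variance trend and Benjamini-Hochberg adjustment, leaving 8 residual degrees of freedom. Symbols and positions were matched for 13735 of 13951 genes with GENCODE vM21. The fitting code was tested on simulated data.

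Named genes are protein-coding opposed genes: the 12 with the smallest interaction p in each direction, the 8 without overlap with the largest smaller difference, and up to 4 per family. Some genes that meet this rule are not reported here. Genes outside this rule are said to be so or stand as examples of their family. The members and lists were chosen with earlier results of these data known. Alternatives changed the log base, added constant, filter, normalization, variance model, weights, covariate and libraries. The GC correction (lowess, span 0.3) was added after seeing the data.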

Additional observations from a re-analysis of the deposited data

How the results depend on the processing

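Over all alternatives run, 45.3 to 50.6% of genes were opposed, and of the 39 ranked genes each kept both signs wherever it was tested, except Tamm41. Leaving out each library in turn gave 0 to 1 interaction calls, 0 to 1 female calls, 0 to 1 male calls, 0 to 2 sex calls and 89 to 170 opposed genes without overlap, more than the 60 with all libraries because fewer libraries must be apart. Leaving out the 4 libraries highest in choroid plexus genes, which leaves 1 WT female, gave 2 interaction calls, 773 genes at an unadjusted interaction p under 0.05, 5 female calls, 1 male call, 5 sex calls and 1081 genes without overlap. Sex calls were 2 with library quality weights and 1 with repeated quantile normalization (the cause was not tested). The male minus female median changed sign in 13 cases. That of choroid plexus with the mean of its own list as covariate (-0.0308) follows from the construction, which removes that signal. The cause of the others was not tested. These were endothelial genes without AS female replicate 2 (range -0.1963 to 0.0084 over single libraries left out), immediate early genes without AS male replicate 2 (range -0.4009 to 0.0018) and without the 4 libraries (0.1662), CA2 and CA3 markers without WT male replicate 3 (range -0.0181 to 0.2009) and without the 4 libraries (-0.0245), and ribosomal proteins without WT male replicate 3 (range -0.0107 to 0.1163). Hearing genes gave 0.0619 with weights, 0.048 at a mean abundance of at least 5, 0.0078 without the 4 libraries, and a range of -0.1264 to 0.0542 over single libraries left out, above 0 without AS female replicate 2, AS male replicate 2 or WT female replicate 3. No paired analysis was possible because the labels give no replicate numbers, and the numbers used here follow accession order. Depth is unknown, so no limit on low levels can be given.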
